A study of Mus musculus with 5 samples.

Results

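Ctla2a, Gng11, Dusp2 and Lrrc2 are 4 genes selected on their own readings from 24886 named genes and unnamed transcripts on a mouse oligonucleotide array. Each differed by a log2 ratio of at least 1, a fold of 2, between Flk1 and Bra mesoderm in both of the indirect readings that the arrays allow. The Flk1 over Bra values below are therefore a description of how the genes were chosen and carry no test.

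The series followed cardiogenesis in embryoid bodies, aggregates in which mouse embryonic stem cells differentiate in culture. RNA came from 4 marker-positive cell populations: Rex1 (gene Zfp42) undifferentiated stem cells at day 0, Flk1 (gene Kdr) cardiac mesoderm and Bra (Brachyury, gene T) early mesoderm, both at day 4.5, and Nkx2.5 (gene Nkx2-5) cardiac progenitors at day 7.5. They were compared on 5 arrays labelled with Cy5 and Cy3: Flk1 with Rex1, Bra with Rex1, Nkx2.5 with Rex1, Nkx2.5 with Flk1, and Nkx2.5 with Bra, the population named first being in Cy5. Every pairing was run once, in 1 dye orientation, and Flk1 and Bra RNA never met on an array. The labels name no strain, no cell line and no number of cultures, and a marker-positive population may still hold cells of several types.

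Flk1, a receptor for vascular endothelial growth factor, marks mesoderm that can give rise to blood, endothelium and heart, while Brachyury is a T-box transcription factor of the primitive streak and the mesoderm leaving it. Ctla2a encodes a small protein that resembles the propeptide of cathepsin L and inhibits that cysteine protease, and it was first described in mouse lymphocytes. Gng11 encodes a gamma subunit that pairs with a beta subunit in heterotrimeric G proteins, Dusp2 encodes a nuclear phosphatase that inactivates MAP kinases, and Lrrc2 encodes a protein with leucine-rich repeats. None of these products is a marker on which the populations were isolated.

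The promoter windows of the members held in the RefSeq table of build GRCm38.p6 are shown because the genes differed in the same pair of populations, and Ctla2b is shown beside Ctla2a as its close paralog. Each runs 5′ to 3′ on the strand of the gene, from 250 bases before the annotated start to 50 bases after it. The Ctla2a window is chr13:60936576-60936875 on the minus strand, the Ctla2b window chr13:60897398-60897697 on the minus strand, the Dusp2 window chr2:127335909-127336208 on the plus strand and the Lrrc2 window chr9:110951295-110951594 on the plus strand. Capitals mark matches, on either strand, to TATAAA (the TATA box), AGATAA (the GATA motif), AACAAT (the SOX motif), TGACTCA (the AP-1 motif) and GGGCGG (the GC box).
Ctla2a: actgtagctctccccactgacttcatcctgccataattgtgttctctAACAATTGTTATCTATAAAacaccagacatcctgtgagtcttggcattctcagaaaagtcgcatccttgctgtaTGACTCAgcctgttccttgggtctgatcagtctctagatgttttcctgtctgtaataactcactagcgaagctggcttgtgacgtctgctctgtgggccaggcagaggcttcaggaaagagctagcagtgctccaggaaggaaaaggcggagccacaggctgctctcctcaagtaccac
Ctla2b: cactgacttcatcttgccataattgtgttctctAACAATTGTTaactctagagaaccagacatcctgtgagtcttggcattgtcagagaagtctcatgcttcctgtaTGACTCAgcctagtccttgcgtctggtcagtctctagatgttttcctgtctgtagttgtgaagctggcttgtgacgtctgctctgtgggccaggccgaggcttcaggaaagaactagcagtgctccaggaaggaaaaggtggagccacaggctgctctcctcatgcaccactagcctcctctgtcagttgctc
Dusp2: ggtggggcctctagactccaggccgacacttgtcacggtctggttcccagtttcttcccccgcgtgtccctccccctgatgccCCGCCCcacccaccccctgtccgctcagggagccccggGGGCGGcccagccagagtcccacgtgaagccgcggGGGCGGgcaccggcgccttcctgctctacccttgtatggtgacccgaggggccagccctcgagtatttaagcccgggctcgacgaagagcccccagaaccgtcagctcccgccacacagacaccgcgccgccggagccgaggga
Lrrc2: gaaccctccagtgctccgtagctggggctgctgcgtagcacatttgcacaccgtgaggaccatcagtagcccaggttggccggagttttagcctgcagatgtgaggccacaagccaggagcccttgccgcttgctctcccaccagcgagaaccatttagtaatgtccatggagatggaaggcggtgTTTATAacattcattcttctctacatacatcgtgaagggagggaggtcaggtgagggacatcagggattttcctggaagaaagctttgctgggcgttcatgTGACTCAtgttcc

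The table held windows for 3 of the 4 members, and a second annotated start of Ctla2a lay 59 bases away. The window of that other start, not shown, held TATAAA and TGACTCA but neither AACAAT nor AGATAA. It was identical to the Ctla2b window at 68.4% of aligned columns. Aligned columns include gaps, among them the unpaired ends of windows that begin at different points of the shared sequence. This percentage and the one below therefore vary with the placing of the window. Both understate the likeness of the paired bases. The AACAAT and AGATAA matches of Ctla2a depend on the start chosen. The values below are for the Ctla2a window shown. The Ctla2a and Ctla2b windows were identical at 255 of 322 aligned columns, 79.2%. Both held TGACTCA, which 5.2% of all 32851 windows of the table held, and both held AACAAT on each strand, in overlapping matches, against 10.7% of all windows holding it at least once. They differed at TATAAA, found in the Ctla2a window 190 bases before the start and not in the Ctla2b window, and at AGATAA, found on the opposite strand of the Ctla2a window, where it overlaps both TATAAA and AACAAT, and not in the Ctla2b window. TATAAA stood in 13.6% of all windows and AGATAA in 11.2%. The Dusp2 window was the richest in G and C, at 70.7% with 26 CpG dinucleotides against a median of 52.7% and 7 over all windows, and held 3 matches to GGGCGG, a motif present in 35.7% of windows. The Lrrc2 window held TATAAA on the opposite strand, 64 bases before the start, and TGACTCA after the start. The ETS motif CCGGAA, the forkhead motif TGTTTAC, the T-box motif AGGTGTGA, the cyclic AMP motif TGACGTCA and the TCF motif CTTTGAT were in none of these 4 windows. They stood in 14.9%, 3.65%, 1.28%, 1.79% and 3.73% of all windows in that order. The E box CANNTG, in 72.3% of windows, was in all 4, and a loose form of the serum response element, CC and GG with any 6 bases between them, in 73.3%, was in those of Dusp2 and Lrrc2.

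The difference between the day 4.5 populations was read along separate routes. Reading 1 is the log2 ratio of Flk1 over Rex1 minus that of Bra over Rex1, and reading 2 is the log2 ratio of Nkx2.5 over Bra minus that of Nkx2.5 over Flk1. The readings share no array, and Flk1 and Bra carried the same dye within each, Cy5 in reading 1 and Cy3 in reading 2, so that a dye effect of constant size for a probe subtracts out. Over 24246 genes and transcripts the gap between the readings had an SD of 0.410. With equal and independent errors on the arrays, this corresponds to an average error of 0.205 for 1 array and also for the mean of the readings. Over the same genes the SD was 0.352 for reading 1 and 0.233 for reading 2, so equal errors are an approximation. The mean of the readings had an SD of 0.217 over these genes, close to its error. In 4 equal groups of genes ordered from dim to bright the SD of the gap was 0.558, 0.475, 0.317 and 0.176.

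Ctla2a, Gng11 and Dusp2 were higher in Flk1 than in Bra mesoderm in both readings and in both channel comparisons described below. The channel comparisons use the same spots as the readings that chose the genes and are no separate evidence. Lrrc2 read lower in Flk1 on both routes, but its channel levels in the populations overlapped. Ctla2a had log2 ratios of 2.09 and 1.90 in the readings, with a mean of 1.99 that corresponds to 3.97-fold. Gng11 had 1.58 and 1.45, a mean of 1.52 and 2.86-fold. Dusp2 had 1.62 and 1.12, a mean of 1.37 and 2.59-fold. Lrrc2 had -1.62 and -1.52, a mean of -1.57. Each Lrrc2 reading includes a spot that was not well above background, of Rex1 in reading 1 and of Flk1 in reading 2, so no exact fold is given for it. By this rule, which also asks that the brighter population be well above background, 5 genes or 0.0201% of those measured were higher and 1 gene or 0.00402% was lower, 6 in all including the 4 members. With plain background subtraction 6 genes were higher and 13 lower, and in the deposited log2 values 4 and 8; under both settings 3 of the members passed, and Dusp2 missed with a reading 2 of 0.85 and 0.86. The others of the 6 were Sox18, a transcription factor gene of endothelium, at 2.19 and 1.56, and the histone H4 gene H4c9, at 1.33 and 1.30, whose near-identical copies a probe may not tell apart. Just outside the rule lay Lmo2, a cofactor gene of blood and endothelial progenitors, at 1.32 and 0.99, the apolipoprotein gene Apoa1 at 1.52 and 0.93, the fibulin-like gene Efemp2 at -1.20 and -0.98, and Wdr46 at -1.01 and -0.95.

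**Figure D1:**
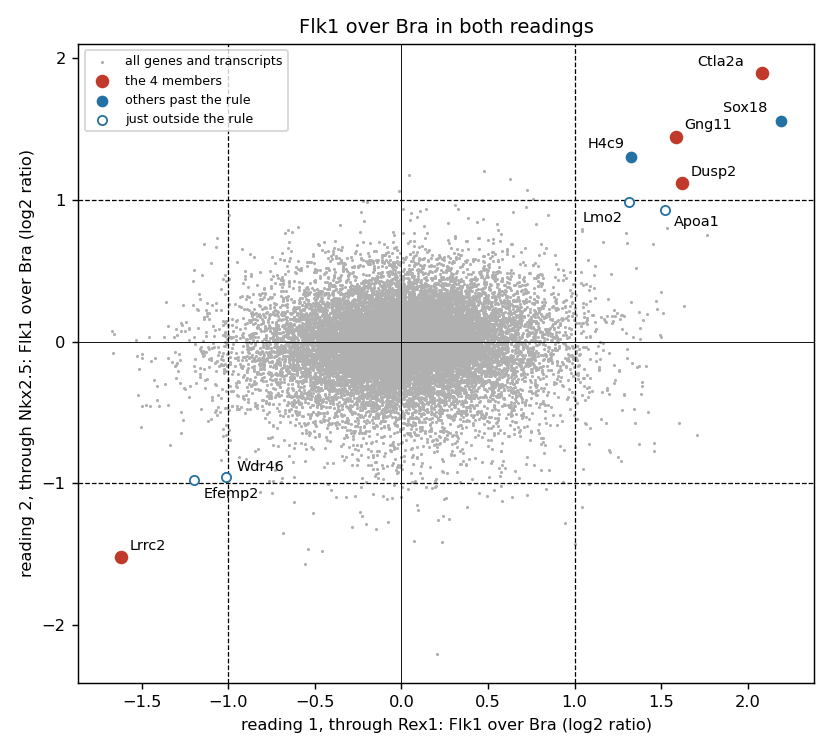
Reading 1 (horizontal axis) against reading 2 (vertical axis) of Flk1 over Bra, as log2 ratios, for 24886 genes and transcripts (grey), with dashed lines at log2 ratios of 1 and -1. The 4 members (red) lie in the outer corners with Sox18 and H4c9 (blue), and open circles are the genes just outside the rule.

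The gaps between the readings of the members were 0.188 for Ctla2a, 0.136 for Gng11, 0.497 for Dusp2 and 0.0991 for Lrrc2, against SDs of 0.475, 0.475, 0.317 and 0.558 in their groups of like brightness. A rule that asks for both readings favours small gaps, so these say little about precision. Without background subtraction, where the local background stays in both channels and shrinks ratios, the means were 0.65 for Ctla2a, 0.41 for Gng11, 0.53 for Dusp2 and -0.21 for Lrrc2, and 0 genes passed.

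Ctla2a was bright in Flk1 and Nkx2.5 cells and dim in Rex1 and Bra cells. Its net signal, the spot median after subtraction of local background, was 1666.5, 1921.5 and 1406.5 in Rex1, 5899 and 8238 in Flk1, 2106 and 3880 in Bra, and 4632.5, 8077.5 and 8590.5 in Nkx2.5. These values are not normalised between arrays. Every spot passed the background cutoff, but only at 1.15 to 1.63 times it in Rex1 and at 1.54 and 1.72 times in Bra. The mean Flk1 over Bra reading, 1.99 as processed here, was 1.57 with plain background subtraction and 0.65 without subtraction. The fold is therefore approximate. The channel levels, log2 intensities made comparable between arrays by loess and equal distributions of mean intensity, were 12.39 and 12.78 in Flk1 against 10.07 and 10.43 in Bra, and the populations did not overlap. The levels were 10.28 to 10.72 in Rex1, overlapping those of Bra, and 11.99 to 12.43 in Nkx2.5, overlapping those of Flk1. A least-squares fit over the 5 arrays placed Ctla2a relative to Rex1 at a log2 level of 1.74 in Flk1, -0.25 in Bra and 1.47 in Nkx2.5. The average error of such a level was 0.162 for Flk1 and Bra and 0.145 for Nkx2.5. Flk1 and Nkx2.5 were thus the high populations, with Bra and Rex1 below them.

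Gng11 was likewise high in Flk1 and Nkx2.5 and low in Bra and Rex1, with smaller differences than Ctla2a between Flk1 and Bra. Its net signal was 1455, 1470.5 and 1056.5 in Rex1, 4104 and 5780.5 in Flk1, 2367 and 4952 in Bra, and 2649, 7659.5 and 6200 in Nkx2.5. Of the Rex1 spots 2 of 3 passed the background cutoff, and the spots of the other populations all did. The channel levels were 11.80 and 12.19 in Flk1 against 10.26 and 10.80 in Bra, with no overlap, while the Nkx2.5 levels of 11.04 to 11.87 overlapped those of Flk1 and the Rex1 levels of 9.77 to 10.23 ended just below those of Bra. The fitted levels relative to Rex1 were 1.61 in Flk1, 0.09 in Bra and 1.22 in Nkx2.5, so Bra and Rex1 differed by less than the error of 0.162.

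Dusp2 was measured by 2 probes, whose Flk1 over Bra ratios had the same sign. The brighter probe stands for the gene. Its net signal was 2964.5, 3193.5 and 1971 in Rex1, 6737 and 7935.5 in Flk1, 3407 and 6858 in Bra, and 3619, 7872.5 and 7051 in Nkx2.5. The channel levels of 12.60 and 12.72 in Flk1 lay above the 10.96 and 11.45 of Bra and also above the 11.56 to 12.06 of Nkx2.5, with no overlap, and those of Rex1, 10.94 to 11.68, overlapped both Bra and Nkx2.5. The second probe read 1.26 and 0.95, a mean of 1.10 and 2.15-fold, and by itself would not have passed the rule. Its Flk1 levels were 12.03 and 12.01 against 10.66 and 10.47 in Bra.

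The Dusp2 probes disagreed on Rex1. On the array of Flk1 with Rex1 the brighter probe had a log2 ratio of 0.92 and the second 2.34, and on the array of Bra with Rex1 they had -0.70 and 1.08. The fitted levels relative to Rex1 were 0.95 in Flk1, -0.42 in Bra and 0.32 in Nkx2.5 for the brighter probe and 2.24, 1.14 and 1.66 for the second. Rex1 was not well above background on any of its 3 arrays for the second probe, so its ratios over Rex1 are no exact folds. In the fitted levels both probes put Flk1 highest and Nkx2.5 next, and they differ on whether Bra lies below or above Rex1. For the brighter probe, Bra over Rex1 was -0.70 on the direct array and 0.16 through Nkx2.5. Its direction between Bra and Rex1 thus depends on the route. The arrays that carried no Rex1 gave the probes close ratios, 0.47 and 0.46 for Nkx2.5 over Bra and -0.65 and -0.49 for Nkx2.5 over Flk1.

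Lrrc2 was the dimmest member, and its channel levels did not separate Flk1 from Bra. Its net signal was 607, 2501 and 1513 in Rex1, 1876 and 608.5 in Flk1, 2035 and 4263 in Bra, and 2041, 3828.5 and 3185 in Nkx2.5. The spot exceeded the background cutoff in Flk1 on 1 of 2 arrays, in Rex1 on 2 of 3, and in Bra and Nkx2.5 on each. The channel levels were 10.30 and 8.98 in Flk1 against 9.95 and 10.46 in Bra, and the populations overlapped. Rex1 spanned 9.21 to 11.18, which takes in all other levels but 1, while Nkx2.5 kept within 10.45 to 10.53. The fitted levels relative to Rex1 were -0.998 in Flk1, 0.57 in Bra and 0.41 in Nkx2.5.

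**Figure D2:**
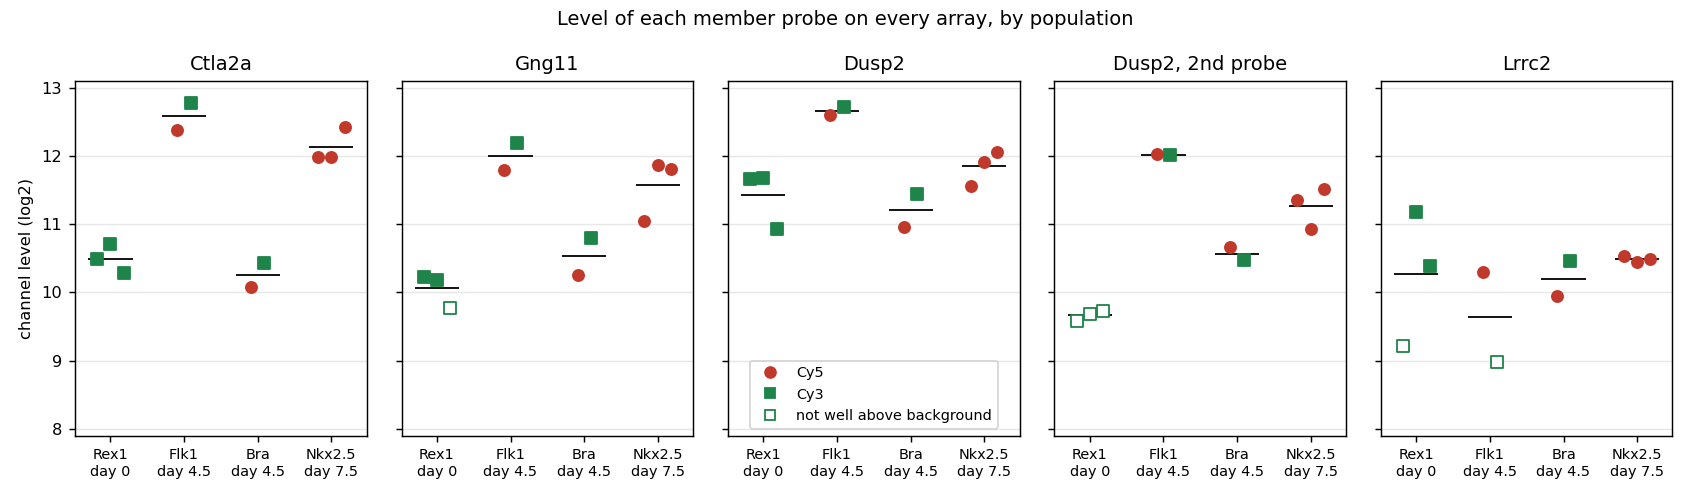
Channel level (log2) of each of the 5 member probes on every array that carried a population, with populations in order of day. Circles are Cy5, squares Cy3, open symbols spots not well above background, and bars the mean over arrays; Flk1 lies above Bra without overlap in every panel but that of Lrrc2, where they overlap.

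Splitting each reading into its channels set Lrrc2 apart from the other members. For Ctla2a the Flk1 channel exceeded the Bra channel by 2.31 in reading 1 and 2.34 in reading 2, while the Rex1 and Nkx2.5 channels on the same arrays differed by 0.23 and 0.45. For Gng11 the Flk1 channel exceeded the Bra channel by 1.53 and 1.39, and for the brighter Dusp2 probe by 1.64 and 1.27, with differences of the shared population between -0.05 and 0.15. For the second Dusp2 probe the Flk1 channel exceeded the Bra channel by 1.37 and 1.54, with Rex1 differing by 0.11 and Nkx2.5 by 0.59. For Lrrc2 in reading 1 the Flk1 channel was not lower than the Bra channel but higher by 0.35. The Rex1 level was 1.97 higher on the Flk1 array than on the Bra array, which left a reading of -1.62. A single channel level also carries any effect on the whole spot, which a ratio cancels. The part of such an effect was not tested. In reading 2 the Lrrc2 level in Flk1 was 1.47 below that in Bra, on an array where the Flk1 spot was not well above background, and Nkx2.5 differed by 0.05.

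**Figure D3:**
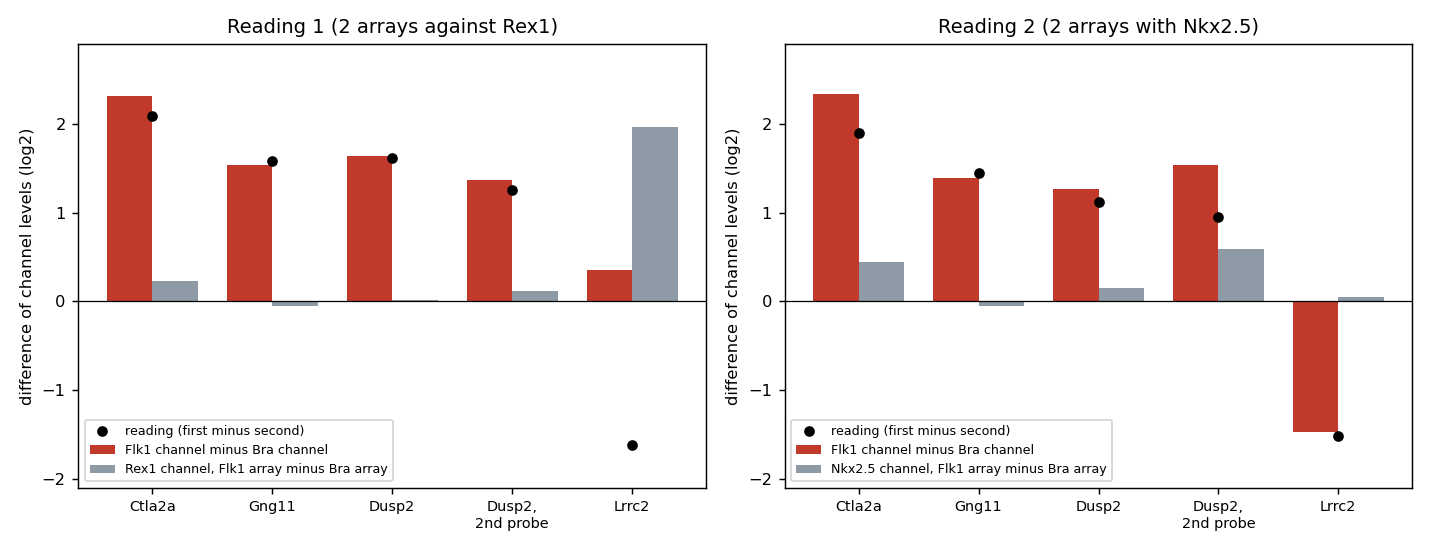
Each reading of Flk1 over Bra (points) for the 5 member probes, as the difference of the Flk1 and Bra channels (red bars) minus the difference of the shared population's channel between the same arrays (grey bars), in log2 units. For Ctla2a, Gng11 and Dusp2 the red bars are the larger part of both readings. For Lrrc2 in reading 1 the red bar is above 0 and the grey Rex1 bar is 1.97.

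The Lrrc2 spot lay in the block of spots with the highest Cy3 background of the 48 blocks on all 5 arrays. Over its 604 probes the median of reading 1 was -0.26 and that of reading 2 was -0.30, against -0.0015 and -0.0057 over all genes. On average 59.2% of that block's probes were well above background in Cy3, against 85.8%, 86.0% and 86.0% in the blocks of the Ctla2a, Gng11 and brighter Dusp2 spots and 76.3% in that of the second Dusp2 spot. The block of the second Dusp2 spot had median readings of 0.27 and 0.03, the first in the direction of that probe's own readings. The part of this block in the readings of the second Dusp2 probe was not tested. Medians in the blocks of the Ctla2a, Gng11 and brighter Dusp2 spots lay between -0.09 and 0.07. With every block centred on its own median, a setting added after these values were seen, Lrrc2 read -1.30 and -1.22 and still passed, with a mean of -1.26. The part of the block in the Lrrc2 result beyond this centring was not tested.

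On the 5 arrays themselves, Ctla2a had log2 ratios of 1.67 for Flk1 over Rex1, -0.41 for Bra over Rex1, 1.71 for Nkx2.5 over Rex1, -0.34 for Nkx2.5 over Flk1 and 1.55 for Nkx2.5 over Bra. Gng11 had 1.61, 0.03, 1.27, -0.38 and 1.07 in the same order. Dusp2 had 0.92, -0.70, 0.63, -0.65 and 0.47, and Lrrc2 had -0.89, 0.73, 0.14, 1.52 and -0.01. Ctla2a and Gng11 thus stood above Rex1 and Bra in both Flk1 and Nkx2.5 cells, while Dusp2 in Nkx2.5 cells lay between its Flk1 and Bra values. For Lrrc2 the direct array gave -0.01 for Nkx2.5 over Bra and the route through Rex1 -0.59.

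**Figure D4:**
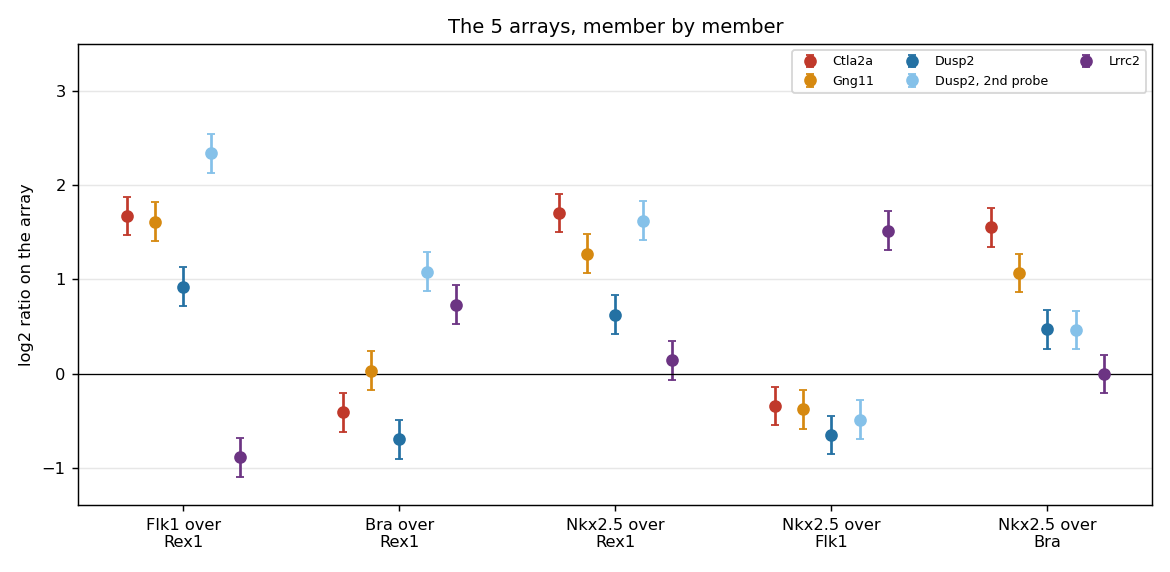
Log2 ratio of the 5 member probes on each of the 5 arrays, with bars of 0.205, the average error of 1 array. The same bar stands on every probe and array, though the gap between the readings varied more among dim genes. Reading 1, from arrays with Rex1, also varied more over all genes than reading 2. Ctla2a and Gng11 are near 1.6 for Flk1 over Rex1 and near 0 or below for Bra over Rex1; Lrrc2 runs the other way, at -0.89 and 0.73.

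Under the same rule in the other comparisons, with the direct array as 1 reading and the route through the other arrays as the next, Ctla2a and Gng11 were higher in Flk1 than in Rex1, where 0.683% of all genes were. Ctla2a read 1.67 and 2.05 there and Gng11 1.61 and 1.65. Both were also among the 2.42% of genes higher in Nkx2.5 than in Rex1 and the 0.277% higher in Nkx2.5 than in Bra. Lrrc2 was among the 0.301% higher in Nkx2.5 than in Flk1, at 1.52 and 1.03. The Flk1 spot behind the 1.52 was not well above background, so that value is no exact ratio. The 1.03 runs through Rex1, on arrays where the Lrrc2 levels were 10.53 in Nkx2.5 and 10.30 in Flk1. On those arrays the Lrrc2 levels in Rex1 were 10.39 and 11.18 in that order. Such levels also carry any effect on the whole spot, and the part of such an effect was not tested. In Bra over Rex1, 0 of the 4 members passed. Dusp2 passed none of the comparisons with Rex1 by its brighter probe. Its second probe reached the log2 ratio in both readings of each, at 2.34 and 2.11 for Flk1, 1.08 and 1.16 for Bra and 1.62 and 1.70 for Nkx2.5, with Rex1 not well above background, so these calls depend on the probe. These comparisons reuse the arrays that chose the members, so the counts are given as a description.

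The array of Nkx2.5 with Rex1 is the one the choice did not use. On it the members had log2 ratios of 1.71 for Ctla2a, 1.27 for Gng11, 0.63 for Dusp2 and 0.14 for Lrrc2. Of all genes, 0.707% had a higher ratio than Ctla2a, 1.74% than Gng11, 7.9% than Dusp2 and 33.7% than Lrrc2. The Rex1 spot of Gng11 was not well above background on this array, so its ratio and place are approximate. For Ctla2a the routes through Flk1 and through Bra gave 1.33 and 1.14, both below the direct 1.71. For Gng11 they gave 1.23 and 1.10 against 1.27, and for the second Dusp2 probe 1.85 and 1.55 against 1.62. For the brighter Dusp2 probe they gave 0.27 and -0.23 against 0.63, and for Lrrc2 0.63 and 0.73 against 0.14, so that the direction of Dusp2 between Nkx2.5 and Rex1 depends on the route. Block centring put the direct Lrrc2 ratio at -0.55 and leaving out background subtraction at -0.30, against 0.14, so its direction on that array depends on the processing.

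Genes related to the members by family, pathway or position had median readings near that of all genes. Since 0.0201% of all genes passed as higher and 0.00402% as lower, a count of 0 in lists of this size tells nothing about a list, and the counts below are given with that background. Of 23 measured cathepsin and cystatin genes besides Ctla2a, 0 were higher and 0 lower by the rule. Their median mean reading was -0.04, against -0.0049 over all genes. The largest values were those of Cstb, the cystatin B gene, at -1.02 and -0.59, and of the placental cathepsin gene Cts8 at 0.83 and 0.09, well above background on no array of Flk1. Cts3 had 0.27 and 0.60 and Cts6 had -0.51 and -0.29. No probe on the array was named Ctla2b. The files describe 3 unnamed transcripts as precursors of Ctla2-beta, and these read 0.56 and -0.02, 0.18 and -0.06, and -0.08 and -0.88, all below the readings of Ctla2a. Whether these probes also bind Ctla2a RNA was not tested. In Rex1 they were well above background on 2, 1 and 0 of 3 arrays, and spots of the last were marked Bad on 2 arrays. The last also lay in the same block as Lrrc2, with its Flk1 spot in reading 2 not well above background.

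Of 27 other G protein subunit genes 0 passed in either direction, with a median of 0.07. Gnao1, an alpha subunit gene, had the highest mean at 0.79 and 0.39, and Gnaq, the alpha subunit that activates phospholipase C, had 1.01 and -0.08. The gamma subunit gene Gng10 had the lowest mean at -0.79 and -0.14, and Gnaz had -0.10 and -0.50. Gngt1, the transducin gamma gene next to Gng11 on the chromosome, had -0.24 and -0.05.

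Of 6 other MAP kinase phosphatase genes 0 passed, with a median of 0.01. Dusp6, which acts on ERK in the cytoplasm, had -0.73 and 0.01, Dusp10 had -0.04 and -0.26, Dusp8 had -0.14 and 0.26, and Dusp7 had 0.20 and 0.05. Of 16 ERK pathway and feedback genes 0 passed, with a median of 0.01. Among these the immediate early gene Egr1 had 0.61 and -0.01, and was well above background in 1 array of Flk1 and none of Bra. The kinase gene Braf had 0.40 and 0.05, the feedback inhibitor gene Spry4 had -0.20 and -0.38, and Fos had -0.12 and -0.33. Of 31 other genes whose symbols begin with Lrrc, a naming group and not a family of shared function, 0 passed, with a median of 0.02. Lrrc63 had 0.07 and 0.71, Lrrc18 had 0.67 and 0.08, Lrrc15 had -0.56 and -0.16 and Lrrc27 had -0.64 and 0.20.

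Among 16 chromosomal neighbours of the members on the array, 4 for each, 0 passed and the median was 0.08. Beside Ctla2a, the trophoblast genes Tpbpa and Tpbpb had 0.70 and 0.29, and 0.32 and 0.50. Beside Gng11, the Golgi transport gene Bet1 had -0.33 and -0.12, and beside Dusp2 Stard7 had 0.09 and 0.11. Beside Lrrc2, the Nodal co-receptor gene Tdgf1 had -0.41 and -0.32 and Rtp3 had -0.71 and 0.06.

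**Figure D5:**
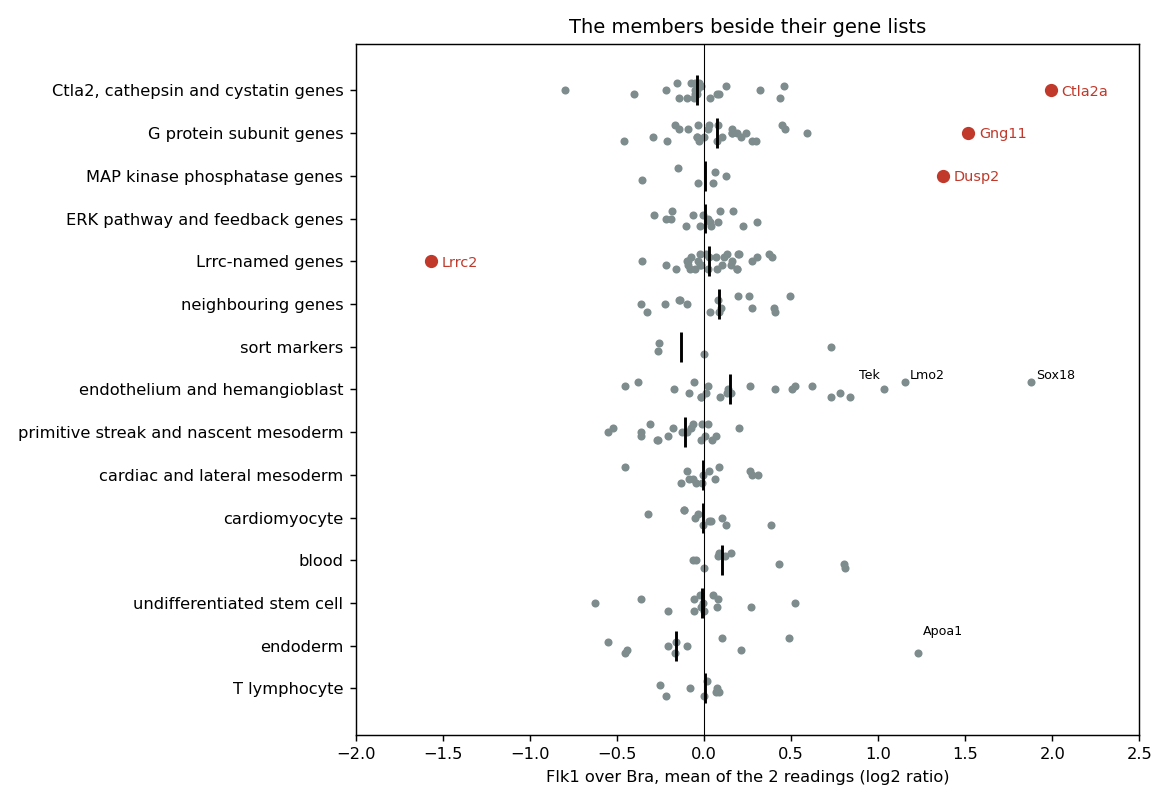
Flk1 over Bra, as the mean of the readings (log2 ratio), for the genes of each list (grey points, 1 per gene, bars at the median without members) and the members (red). The members lie outside the range of the other genes in their own family lists, which follows largely from their choice on these readings. Sox18, Lmo2, Tek and Apoa1 are the other listed genes beyond 1.

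Markers of cell types that either population could hold were set beside the members. The sort marker Kdr was higher in Flk1 in both readings, at 0.83 and 0.63, and T lower, at -0.26 and -0.27, and neither reached the rule. Zfp42 had -0.01 and 0.01 and Nkx2-5 had 0.13 and -0.65. Of 24 endothelium and hemangioblast genes 1, Sox18, was higher and 0 were lower, with a median of 0.15. Lmo2 had 1.32 and 0.99, and the angiopoietin receptor gene Tek had 1.30 and 0.77, while Sox17 had -0.03 and -0.89 and Cldn5 had -0.70 and -0.06. The mean channel level of that list was 11.81 to 11.93 in Flk1 against 11.36 to 11.60 in Bra, without overlap. All 24 genes were well above background on an array of Flk1 and 23 on one of Bra. The mean reading was above 0 for 17 of the 24 and below 0 for 7. The part of cells carrying these markers in the members' ratios was not tested. In RNA from a whole population, a difference in the number of cells that express a gene cannot be told apart from one in RNA per cell.

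Of 20 primitive streak and nascent mesoderm genes 0 passed, with a median of -0.11, and their mean level was 12.13 to 12.14 in Flk1 against 12.45 to 12.55 in Bra. Cer1 had -0.66 and -0.44, Fgf8 had -0.52 and -0.52, Tbx6 had 0.34 and 0.06 and Mixl1 had -0.23 and 0.37. In the blood list 0 of 10 passed, with a median of 0.10, and the embryonic globin genes Hbb-y and Hbb-bh1 had 0.78 and 0.83, and 1.33 and 0.28, while Itga2b had 0.04 and -0.17 and Hba-x -0.37 and 0.28. The mean level of the blood list was 11.50 to 12.36 in Flk1 against 11.39 to 12.18 in Bra. In the endoderm list 0 of 11 passed, with a median of -0.16 and Apoa1 opposite to it, and its mean level overlapped, at 11.94 to 12.10 in Flk1 against 11.92 to 12.16 in Bra. The lists of cardiac and lateral mesoderm (14 genes), cardiomyocyte (11 genes), undifferentiated stem cell (14 genes) and T lymphocyte (8 genes) had 0 genes past the rule and medians of -0.01, -0.01, -0.01 and 0.01. Of the last, chosen because Ctla2a was described in lymphocytes, the readings of Cd4 were -0.39 and -0.12, of Cd3e -0.28 and -0.17, of Ptprc -0.02 and 0.18 and of Gzmb 0.06 and 0.09.

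Likeness of pattern was measured as the root mean square difference of the log2 ratios over the 5 arrays, among 13700 named genes well above background in Flk1 and Bra. Gng11 and Ctla2a were 0.353 apart, which made Gng11 the gene nearest to Ctla2a. After it came H4c9 at 0.534, the imprinted noncoding RNA gene H19 at 0.568 and the adhesion molecule gene Icam2 at 0.602, where the median gene was 1.31 away. Nearest to Gng11 were H4c9 at 0.194, Lmo2 at 0.350, Ctla2a and Icam2 at 0.371, with a median of 1.07. Nearest to Dusp2 were Tek at 0.239, the homeobox gene Hhex at 0.348, Sh3bp5 at 0.354 and Sox18 at 0.360, with a median of 0.731. Icam2, Lmo2, Tek, Hhex and Sox18 also stand in the endothelium and hemangioblast list. Nearest to Lrrc2 were the deacetylase gene Sirt1 at 0.388, Bves, a Popeye domain gene of striated muscle, at 0.452, Plekhb1 at 0.467 and Mug2 at 0.472, with a median of 0.903. Dusp2 was 0.785 from Ctla2a and 0.610 from Gng11, and Lrrc2 was 1.45 to 1.80 from the other members. All of these distances share the same 5 arrays, including those that chose the members. Genes with like Flk1 over Bra readings therefore tend to fall near the members by construction. Likeness over these arrays is a description, and the overlap with the endothelium and hemangioblast list was not tested.

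Signal was limited mainly in Cy3. The share of probes well above background was 92.2% to 95.2% in Cy5 over the 5 arrays, whereas Cy3 reached 77.6% to 84.4% for Rex1 and 90.2% and 91.5% for Bra and Flk1. Log2 ratios of all probes had SDs of 0.427 to 0.481 where Rex1 was hybridised and of 0.237 and 0.325 elsewhere. The number of arrays, 1 for each pair, limits the precision of every value above, and the errors given cover hybridisation only.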

How the data were processed

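Pairs of RNAs from 4 marker-positive populations were hybridised to 5 two-colour arrays. Per the labels' protocols, RNA was column-purified, amplified with amino allyl nucleotides and dye-coupled. The sources used here name no scanner software. The deposited intensity columns hold a spot median and a background for either channel, per the file headers. Testing showed 1 background value for each of 48 blocks and a median already net of it. The deposited ratio is 0 for spots marked Bad, and the deposited series table holds log2 ratios shifted by 1 constant per array.

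Foreground was rebuilt as signal plus background, corrected by normexp (offset 50) and normalised by loess with zero weight on controls (limma 3.58.1, R 4.3.3; later steps in Python 3.11.15). Channel levels came from loess followed by Aquantile. A spot was well above background where its net signal exceeded percentile 95 of 96 negative control spots. Naming used RefSeq, by accession for 8054 probes, symbol for 5229 and synonym for 5063; 575 kept the file's name and 9924 have no name. A gene's value is that of its brightest probe. RefSeq promoter sequences are of build GRCm38.p6. No test between populations was made: no population has a replicate sample, and the 2 residual degrees of freedom of the 5 arrays hold hybridisation error only. The rule was tested on simulated data, and no result given here rests on that test. The members and the gene lists were chosen with earlier results of these data known. Named genes were the members, the genes just inside and outside the rule, the extremes of each list up to 4, the nearest patterns and chromosome neighbours, of which those printed were picked after their values were seen.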

Additional observations from a re-analysis of the deposited data

How the results depend on the processing

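No paired analysis was possible because each pair of populations was hybridised on 1 array and no sample has a replicate. Of 96 values under other settings, 61 stayed within the average error of 0.205 or, for counts, within 1.5 times, and 35 moved. The 4 Flk1 over Bra means kept their sign under all 9 settings that re-made the values. Offset 10, median centring and leaving out Bad spots moved none of the 10 results.

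Without background subtraction the counts were 0 and 0, the Flk1 over Bra means were 0.65 (Ctla2a), 0.41 (Gng11), 0.53 (Dusp2) and -0.21 (Lrrc2), and the direct Nkx2.5 over Rex1 ratios were 0.17, 0.28, 0.14 and -0.30 in that order. With plain subtraction 6 genes were higher and 13 lower, and the means were 1.57, 1.12, 1.07 and -1.85, with direct ratios of 1.34 for Ctla2a and 1.0 for Gng11. In the deposited log2 values 4 genes were higher and 8 lower, the means were 1.58, 1.10, 1.06 and -1.91, and the direct ratios were 1.36 for Ctla2a and 0.97 for Gng11. Under both of these settings 3 of the 4 members passed, and Dusp2 missed with a reading 2 of 0.85 and 0.86. Scaling between arrays gave 13 higher and 2 lower genes, means of 2.31 for Ctla2a and 1.74 for Gng11, and direct ratios of 1.32 and 0.98. A threshold of 0.5 gave 72 higher and 97 lower genes. Averaging probes put the direct Dusp2 ratio at 1.12. Block centring, added after the values were seen, gave a Lrrc2 mean of -1.26 and a direct Lrrc2 ratio of -0.55. The cause of these shifts was not tested, other than that background left in both channels shrinks a ratio by construction.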
